A study of Mus musculus with 15 samples.

Results

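The genes described here encode receptors for extracellular adenosine and nucleotides: the adenosine receptors Adora1, Adora2a and Adora2b, the ATP-gated channels P2rx4 and P2rx5, and the nucleotide receptors P2ry1, P2ry2, P2ry6 and P2ry14. These 9 genes were taken by symbol from the 46078 genes of the batch 1 count table, and 6 of them were also among the 13063 named genes of the batch 2 count table, which did not list Adora1, Adora2a and P2ry6. The cells were mouse muscle satellite cells, the stem cells of skeletal muscle, taken from hindlimb muscle and grown in F10 medium with horse serum. In batch 1, 3 libraries came from cells given DMSO, the solvent control, and 3 from cells given 0.05 mM adenosine. In batch 2, 3 libraries came from DMSO, 3 from 0.1 mM adenosine and 3 from 0.25 mM AMP, the nucleotide that cell-surface enzymes convert to adenosine. All treatments lasted 24 hours, all cells were in the same growth medium, and no other allele or agent is named in the labels. The batch 2 libraries are labelled with the strain C57BL/6J, while those of batch 1 carry no strain. The labels give neither the age of the mice nor whether the replicates came from separate animals or separate cultures. Each p-value therefore rests on how far these libraries scattered, and that scatter may be technical.

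Adenosine receptors are G protein-coupled receptors. The products of Adora2a and Adora2b couple mainly to the stimulatory G protein and raise cyclic AMP, whereas that of Adora1 couples to inhibitory G proteins. The Adora2b receptor needs more adenosine for activation than the products of Adora1 and Adora2a. P2X receptors are cation channels opened by ATP. P2Y receptors are G protein-coupled: P2ry1 responds to ADP, P2ry2 to ATP and UTP, P2ry6 to UDP and P2ry14 to UDP-glucose, and P2ry1, P2ry2 and P2ry6 act mainly through the Gq protein and phospholipase C.

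Of the receptor genes tested, Adora2b and P2ry2 had the largest falls and P2rx4 the clearest rise. These 3 are introduced by the 250 bases before their annotated starts, from RefSeq on GRCm38.p6, because each kept its own direction under every treatment. RefSeq promoter entries were matched for 6 of the 9 genes. Capitals mark, on either strand, the core TGACG of the cyclic AMP response element, the E-box CANNTG bound by myogenic factors among others, and the GC box GGGCGG. Each sequence reads 5′ to 3′ on the gene's own strand.
Adora2b, chr11:62248734-62248983, plus strand: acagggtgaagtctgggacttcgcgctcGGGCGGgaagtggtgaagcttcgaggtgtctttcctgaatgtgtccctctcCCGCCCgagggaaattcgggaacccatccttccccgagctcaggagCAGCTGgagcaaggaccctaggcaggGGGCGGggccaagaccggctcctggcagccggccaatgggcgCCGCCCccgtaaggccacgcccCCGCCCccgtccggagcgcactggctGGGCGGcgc
P2ry2, first of 2 entries, chr7:101012054-101012303, minus strand: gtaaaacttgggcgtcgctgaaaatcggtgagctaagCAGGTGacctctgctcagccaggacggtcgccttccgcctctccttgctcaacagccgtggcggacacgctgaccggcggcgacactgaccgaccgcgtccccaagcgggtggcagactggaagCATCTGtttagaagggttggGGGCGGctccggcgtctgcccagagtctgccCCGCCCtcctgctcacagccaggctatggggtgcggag
P2rx4, chr5:122707294-122707543, plus strand: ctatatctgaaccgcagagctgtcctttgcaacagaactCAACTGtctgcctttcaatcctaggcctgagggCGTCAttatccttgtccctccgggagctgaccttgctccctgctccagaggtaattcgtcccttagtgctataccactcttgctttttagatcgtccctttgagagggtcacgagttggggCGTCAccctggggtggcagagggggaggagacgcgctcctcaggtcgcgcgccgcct
The Adora2b sequence was 69.6% G and C, against a median of 52.4% over 32817 mouse promoters of the same length, and held 6 GC boxes and 1 E-box, of sequence CAGCTG. The P2ry2 sequence was 65.2% G and C, with 2 GC boxes and 2 E-boxes. The second P2ry2 entry, chr7:101011999-101012248, overlaps the first and was 71.2% G and C, with 4 GC boxes, 2 E-boxes and 2 matches of the hypoxia response core ACGTG, both within 1 CACGTG that began 18 bases before that start. The P2rx4 sequence was 57.2% G and C and held no GC box, 1 E-box and 2 copies of TGACG, which began 178 and 57 bases before the start. Of all promoters, 32.7% held a GC box, 66.2% an E-box and 17.7% TGACG. The search also covered the whole cyclic AMP response element TGACGTCA (1.55% of promoters), the AP-1 element TGANTCA (6.75%), the hypoxia response core ACGTG (16.6%) and CAGCTG (13%), on both strands; TGACGTCA contains TGACG, and CAGCTG is also a CANNTG. None of TGACGTCA, TGANTCA and ACGTG was found in the 3 sequences shown. Which motifs to put in capitals was chosen after the matches were seen. These matches describe letters and were not tested as binding sites.

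Library depth, as total counts, was 14683346 to 20799588 in batch 1 and 11107450 to 14201933 in batch 2, so that 3 counts stood for 0.144 to 0.204 CPM and 0.211 to 0.270 CPM, counts scaled to the library total. Markers fixed for satellite cells and myoblasts were all present, at a summed 6845 to 7085 CPM in the batch 1 DMSO libraries and 4302 to 5198 CPM with adenosine. Of these 9 markers 7 were lower, Sdc4 was higher (1310 and 2168 CPM) and Pax7 was not called (59.1 and 60.6 CPM), and most of the fall in the sum was that of Myod1 (2735 and 1168 CPM). In batch 2, 7 were lower and 2 higher with adenosine, and 6 lower and 2 higher with AMP. Pax7 in batch 2 averaged 41.7 CPM with DMSO, 65.9 CPM with adenosine and 77.1 CPM with AMP. In the batch 1 DMSO and adenosine libraries, leukocyte and macrophage markers summed to 7.07 to 9.11 CPM and 20.9 to 32.1 CPM. Of these sums the phagocyte gene Cd68 held 1.86 and 12.9 CPM on average. Endothelial markers summed to 10.1 to 12.5 CPM and 21.5 to 28.9 CPM, with the angiopoietin receptor gene Tek at 4.49 and 17.9 CPM. Egfl7 of that list went the other way, at 4.71 and 2.99 CPM. Markers of differentiated muscle summed to 23.7 to 59.3 CPM and 2.54 to 17.6 CPM, without overlap. The remaining lists overlapped between these groups. Fibro-adipogenic markers summed to 113 to 151 CPM and 76.3 to 156 CPM. Smooth muscle and pericyte markers summed to 5.49 to 6.44 CPM and 2.49 to 7.15 CPM, and Schwann markers to 2.84 to 4.59 CPM and 1.29 to 4.54 CPM. The part of other cell types in the receptor levels was not tested. The treatments changed much of the transcriptome: by edgeR's quasi-likelihood test at a Benjamini-Hochberg adjusted p under 0.05, called here "passed the test", 39.2% of all genes tested differed with adenosine in batch 1, 69.4% with adenosine in batch 2 and 65.6% with AMP.

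In the DMSO cells, 6 of the 9 receptor mRNAs were at measurable levels. Levels of different genes were compared as CPM per kilobase of summed exon length. In batch 1 DMSO, P2ry2 stood at 4.14 ± 0.625 CPM per kilobase (SD, n = 3), P2rx4 at 4.10 ± 0.490 and Adora2b at 3.31 ± 0.692, and these neighbours overlapped between libraries. P2ry1 followed at 1.88 ± 0.291, below Adora2b in every library. P2ry14 at 1.09 ± 0.0148 and P2rx5 at 1.03 ± 0.452 overlapped each other. P2ry6, Adora2a and Adora1 came last, at 0.239, 0.104 and 0.0812 CPM per kilobase, and overlapped. In batch 2 DMSO, Adora2b led with 5.82 ± 1.20 CPM per kilobase and overlapped P2ry2 at 5.23 ± 0.579. Below them P2ry1 at 2.22 ± 0.121, P2rx4 at 1.92 ± 0.147, P2rx5 at 0.827 ± 0.170 and P2ry14 at 0.192 ± 0.0593 were separate from each other. The deposited FPKM values gave the same order in both control groups, but they rest on the same counts and exon lengths and are no separate check. The tables of the batches were made separately, so levels set across them carry that difference as well.

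Adora2b, the low-affinity adenosine receptor, fell more than any other receptor gene tested here. The gene lies on chromosome 11, 62248984 to 62266453, plus strand (GRCm38, ENSMUSG00000018500). In batch 1 the DMSO libraries held 7.50, 4.98 and 5.86 CPM and the adenosine libraries 0.136, 0.124 and 0.473 CPM, the latter from 2, 2 and 8 counts. The groups were far apart, and every adenosine library was near the level of a few counts. Adora2b was 27.3-fold lower with adenosine by the edgeR fit (log2 fold change -4.77, SE 0.54, adjusted p = 3.21e-05). It passed the filter on low counts only through the DMSO libraries. The size of the fall rests on those few adenosine counts, and its 95% interval on the log2 scale was -5.95 to -3.59. In batch 2 the DMSO libraries held 8.66, 13.1 and 10.5 CPM, against 0.908, 1.96 and 0.508 CPM with adenosine and 2.25, 4.40 and 1.11 CPM with AMP. Both treated groups lay below all DMSO libraries and overlapped each other. The fall was 11.6-fold with adenosine (log2 fold change -3.54, SE 0.44, edgeR adjusted p = 3.25e-06) and 4.96-fold with AMP (log2 fold change -2.31, SE 0.40, edgeR adjusted p = 0.000107). The direct comparison of AMP with adenosine gave a log2 difference of 1.23, with a 95% interval of 0.17 to 2.28, and did not pass the test (edgeR adjusted p = 0.169). It passed when the third AMP library was left out (log2 difference 1.62, edgeR adjusted p = 0.0403).

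**Figure D1:**
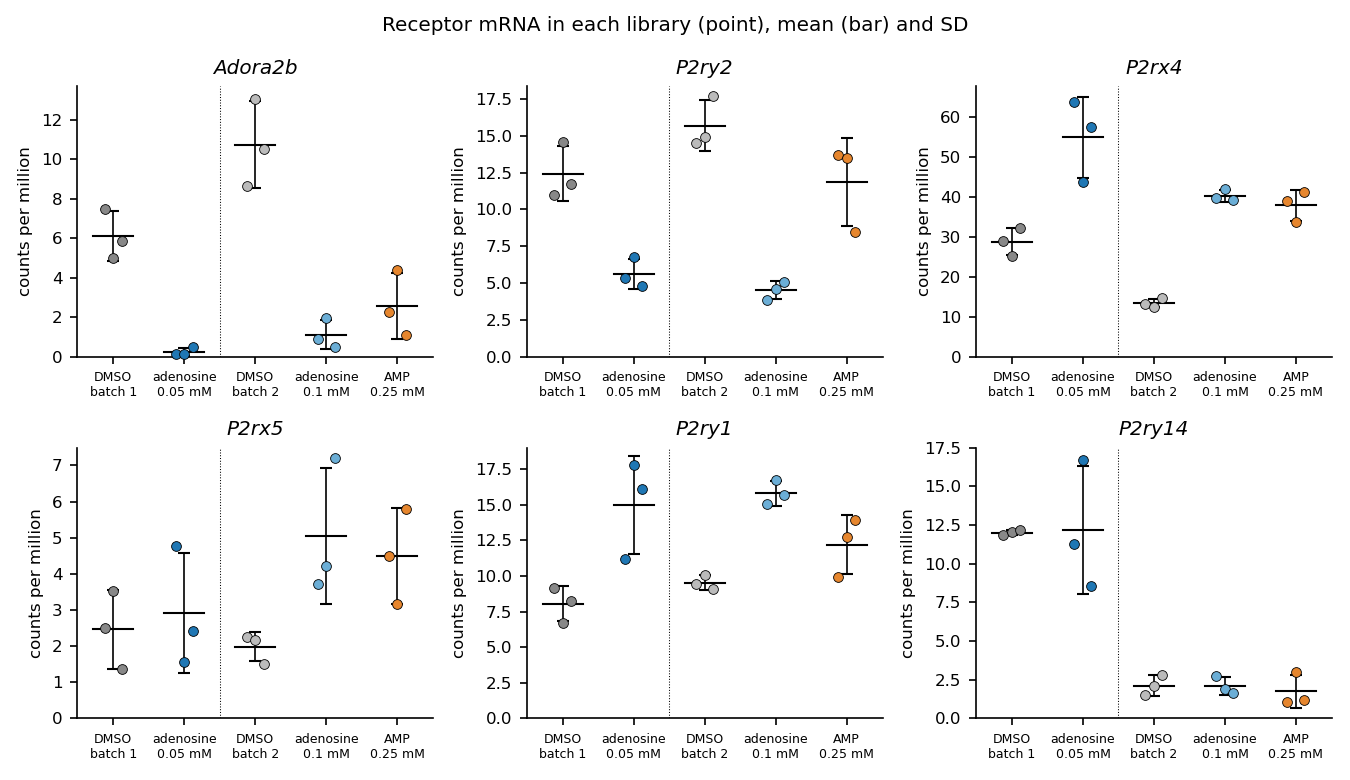
CPM of 6 receptor genes in each of the 15 libraries (points), with the mean (long bar) and SD (whiskers) of 3 libraries per group; the dotted line separates the batches and each vertical axis has its own scale from 0. Adora2b was at 0.124 to 0.473 CPM with adenosine in batch 1 against 4.98 to 7.50 CPM in its controls, and P2rx4 was higher in every treated library than in the controls of its batch.

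The other adenosine receptors were close to the counting limit. Adora1, the receptor of inhibitory G proteins (chromosome 1, 134199223 to 134235431, minus strand), had 21, 6 and 0 counts in the batch 1 DMSO libraries and 9, 0 and 0 with adenosine. Adora2a, a cyclic AMP-raising receptor (chromosome 10, 75316943 to 75334788, plus strand), had 10, 0 and 5 counts, and 2, 1 and 0 with adenosine. P2ry6, the UDP receptor (chromosome 7, 100937638 to 100964391, minus strand), was as sparse, with 16, 1 and 9 counts, and 5, 1 and 1 with adenosine. Most of these counts came from 1 or 2 libraries of a group. Summed over the 3 libraries, Adora1 had 0.519 CPM (exact Poisson 95% interval 0.342 to 0.755) with DMSO and 0.189 CPM (0.0863 to 0.358) with adenosine. For Adora2a the summed levels were 0.288 CPM (0.161 to 0.475) and 0.0629 CPM (0.0130 to 0.184), and for P2ry6 0.499 CPM (0.326 to 0.732) and 0.147 CPM (0.0590 to 0.303). These intervals cover counting error only and not the spread between libraries, and the 3 genes did not pass the filter on low counts, so no test was made. In the authors' deposited table of batch 1 their adjusted p-values were 0.598 for Adora1, 0.432 for Adora2a and 0.351 for P2ry6. Adora1 shares 1162 exon bases, 20.1% of its exons, with Mybph on the opposite strand, and the library protocol does not keep the strand, so their reads cannot be told apart there.

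P2ry2, the receptor for ATP and UTP, also fell with adenosine in both batches. The gene lies on chromosome 7, 100996572 to 101011991, minus strand (ENSMUSG00000032860). In batch 1 the DMSO libraries held 11.01, 14.6 and 11.7 CPM and the adenosine libraries 5.38, 6.77 and 4.79 CPM. In batch 2 the DMSO libraries held 14.5, 14.9 and 17.7 CPM, the adenosine libraries 3.88, 4.61 and 5.08 CPM and the AMP libraries 13.7, 13.5 and 8.45 CPM. No treated library reached its controls, but 2 AMP libraries were just under them and well above every adenosine library. P2ry2 was 2.51-fold lower with adenosine in batch 1 (log2 fold change -1.33, SE 0.25, edgeR adjusted p = 0.00135) and 4.29-fold lower in batch 2 (log2 fold change -2.10, SE 0.22, edgeR adjusted p = 4.54e-07). With AMP it was 1.58-fold lower (log2 fold change -0.66, SE 0.20, edgeR adjusted p = 0.00857). That call depended on the scaling: with library totals in place of TMM factors the log2 fold change was -0.40 and the edgeR adjusted p was 0.0749. P2ry2 was the 1 receptor gene that differed between AMP and adenosine, 2.71-fold higher with AMP (log2 difference 1.44, SE 0.22, edgeR adjusted p = 0.00103). In that comparison 6.51% of all genes tested passed, 4.52% higher with AMP and 2.00% lower. The AMP and adenosine libraries did not overlap for P2ry2 and P2ry1, beside 21.8% of all genes. The doses were 0.25 mM AMP and 0.1 mM adenosine, so the agent and its concentration cannot be told apart.

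P2rx4, an ATP-gated cation channel also found on lysosomes, moved the opposite way. It lies on chromosome 5, 122707544 to 122729738, plus strand (ENSMUSG00000029470). The batch 1 DMSO libraries held 29.0, 25.3 and 32.1 CPM and the adenosine libraries 63.5, 43.6 and 57.3 CPM. In batch 2 the DMSO libraries held 13.3, 12.5 and 14.6 CPM, the adenosine libraries 39.6, 41.9 and 39.2 CPM and the AMP libraries 38.9, 33.6 and 41.1 CPM. Every treated library was above its controls, and the adenosine and AMP groups of batch 2 overlapped. P2rx4 was 1.66-fold higher with adenosine in batch 1 (log2 fold change 0.73, SE 0.18, edgeR adjusted p = 0.00541) and 2.41-fold higher in batch 2 (log2 fold change 1.27, SE 0.11, edgeR adjusted p = 9.58e-08). With AMP it was 2.33-fold higher (log2 fold change 1.22, SE 0.11, edgeR adjusted p = 2.15e-07). The difference between AMP and adenosine was -0.05 on the log2 scale, with a 95% interval of -0.28 to 0.18. In batch 1 the rise missed the threshold when tested by limma on log2(FPKM + 1), with an adjusted p of 0.0587. P2rx4 is also transcribed in macrophages. In batch 2, where 3 of the 15 leukocyte and macrophage markers were listed (Cd68, Csf1r and Cd14), their sum was 3.14 to 4.54 CPM with DMSO, 14.2 to 17.5 CPM with adenosine and 14.2 to 19.3 CPM with AMP. In batch 1, where all 15 were listed, Adgre1, Csf1r, Tyrobp, Aif1 and Cd3e were at 0 in every DMSO library, and Tyrobp and Cd3e were at 0 in every adenosine library. With adenosine Adgre1, Csf1r and Aif1 averaged 0.0661, 0.183 and 0.0612 CPM, at or under about the level of 3 counts. Cd79a rose there on average from 0.279 to 1.88 CPM, Cd74 from 0.0443 to 0.774 and Ptprc from 0.0206 to 0.609. Of the 4 markers tested in batch 1, 2 were higher and 0 lower. Of the 3 in batch 2, 2 were higher and 0 lower with each agent. Csf1r in batch 2 averaged 0.153 CPM with DMSO, 1.70 CPM with adenosine and 2.20 CPM with AMP. A change in the number of cells of a type cannot be told apart from a change in RNA per cell in these bulk samples.

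P2rx5, an ATP-gated channel known from differentiating skeletal muscle, was higher in batch 2 and gave no call in batch 1. It lies on chromosome 11, 73160421 to 73172685, plus strand (ENSMUSG00000005950). In batch 2 the DMSO libraries held 2.25, 2.18 and 1.51 CPM, the adenosine libraries 3.72, 4.22 and 7.20 CPM and the AMP libraries 4.50, 3.17 and 5.80 CPM, with both treated groups above all controls. P2rx5 was 2.04-fold higher with adenosine (log2 fold change 1.03, SE 0.32, edgeR adjusted p = 0.00920) and 1.87-fold higher with AMP (log2 fold change 0.91, SE 0.32, edgeR adjusted p = 0.0217). Leaving out the third adenosine library ended the first call (edgeR adjusted p = 0.0698). Leaving out the third DMSO library, the first AMP library or the third AMP library ended the second (edgeR adjusted p = 0.0873, 0.0522 and 0.100). In batch 1 the groups overlapped, with 2.50, 3.52 and 1.36 CPM for DMSO and 4.77, 1.55 and 2.43 CPM for adenosine. The log2 fold change there was 0.06, with a 95% interval of -1.06 to 1.18 (edgeR adjusted p = 0.940). That interval is wide enough to hold a change of the size seen in batch 2. Markers of differentiated muscle summed to 23.7 to 59.3 CPM with DMSO and 2.54 to 17.6 CPM with adenosine in batch 1. In batch 2, where 4 of the 7 were listed, their sums overlapped between all groups.

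P2ry1, the ADP receptor, was higher with adenosine in both batches by the main test, with a less firm call. It lies on chromosome 3, 61002795 to 61008982, plus strand (ENSMUSG00000027765). The batch 1 DMSO libraries held 9.18, 6.71 and 8.27 CPM and the adenosine libraries 11.2, 17.8 and 16.1 CPM. In batch 2 the DMSO libraries held 9.44, 10.1 and 9.08 CPM, the adenosine libraries 15.03, 16.7 and 15.7 CPM and the AMP libraries 9.90, 12.8 and 13.9 CPM. The adenosine libraries were above all controls in each batch, while the lowest AMP library lay within its controls. The CPM use library totals and the fits TMM factors, and the fitted rises were smaller than those of the mean CPM. By the fits P2ry1 was 1.62-fold higher in batch 1 (log2 fold change 0.70, SE 0.25, edgeR adjusted p = 0.0412) and 1.34-fold higher in batch 2 (log2 fold change 0.42, SE 0.15, edgeR adjusted p = 0.0207). With AMP the log2 fold change was 0.08, with a 95% interval of -0.24 to 0.41 (edgeR adjusted p = 0.644). The difference between AMP and adenosine was -0.34 on the log2 scale and did not pass (edgeR adjusted p = 0.214), so the agents were not shown to differ for P2ry1. The batch 1 call was lost in 5 of the 6 refits that left out a library, all but the one without the first adenosine library, with edgeR adjusted p from 0.0531 to 0.172. The batch 2 call was lost without the first or the third DMSO library or the second adenosine library (edgeR adjusted p = 0.0601, 0.0660 and 0.0564). Gm37035, on the opposite strand, shares 992 exon bases, 23.1% of the exons of P2ry1, and had 3 counts in all of batch 1.

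P2ry14, the UDP-glucose receptor, did not pass the test in any comparison. It lies on chromosome 3, 59113855 to 59153618, minus strand (ENSMUSG00000036381), within the span of Med12l on the opposite strand, with no exon base in common. The batch 1 DMSO libraries held 11.8, 12.03 and 12.2 CPM and the adenosine libraries 11.3, 16.7 and 8.58 CPM, a closely grouped control set inside a wide treated one. In batch 2 the DMSO libraries held 1.48, 2.09 and 2.79 CPM, the adenosine libraries 2.73, 1.88 and 1.61 CPM and the AMP libraries 1.08, 2.99 and 1.19 CPM. The log2 fold change with adenosine was -0.17 in batch 1, with a 95% interval of -0.73 to 0.38, and -0.33 in batch 2, with an interval of -1.24 to 0.58. With AMP it was -0.53, with an interval of -1.46 to 0.40, and it passed the test when the second AMP library was left out (log2 fold change -1.16, edgeR adjusted p = 0.0347). The DMSO libraries of batch 2 were already below those of batch 1. The count tables of the batches were made separately, and the cause of this difference was not tested.

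Of the 6 receptor genes tested, 4 passed with adenosine in batch 1, beside 39.2% of all genes. Of these, 2 were higher and 2 lower, beside 19.6% and 19.5% of all genes. With adenosine in batch 2, 5 passed, beside 69.4%: 3 were higher and 2 lower, beside 34.9% and 34.5%. With AMP 4 passed, beside 65.6%: 2 were higher and 2 lower, beside 33.7% and 31.8%. Treated and control libraries did not overlap for the same numbers of receptor genes, 4, 5 and 4, beside 53.6%, 74.6% and 70.7% of all genes. With 6 genes tested, these counts are no property of the receptors as a class. With library totals in place of TMM factors the receptor splits were the same except with AMP, where 2 were higher and 1 lower, while the higher share of all called genes went from 50.1% to 67.2% in batch 1, from 50.3% to 68.7% with adenosine in batch 2 and from 51.4% to 69.9% with AMP. The genes not called in batch 1 were P2rx5 and P2ry14. The median log2 fold change of the 6 genes was -0.06, 0.05 and -0.22 in these comparisons, and that of all genes tested was 0.03, 0.01 and 0.01. The AMP and adenosine comparisons of batch 2 share their DMSO libraries.

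**Figure D2:**
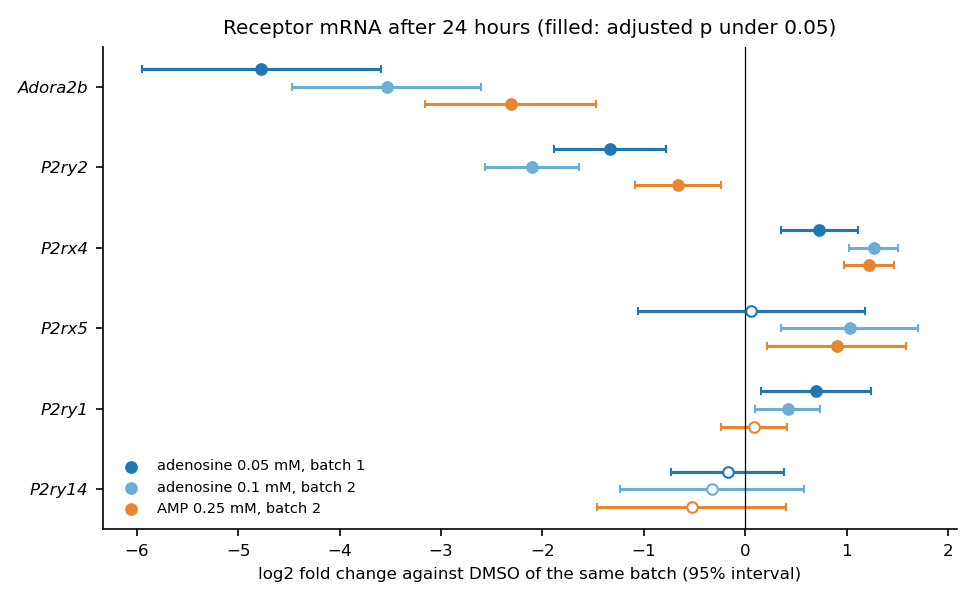
Log2 fold change of each receptor gene against the DMSO libraries of its batch (points) with 95% intervals (bars) from edgeR fits over 6 libraries in batch 1 and 9 in batch 2; filled points passed the adjusted threshold. Adora2b ran from -4.77 to -2.31, P2ry2 from -2.10 to -0.66 and P2rx4 from 0.73 to 1.27, while all 3 intervals of P2ry14 included 0.

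Whether adenosine acted differently in the 2 batches, where 0.05 and 0.1 mM were used, was tested as an interaction over 12 libraries. None of the 6 receptor genes passed by edgeR or by DESeq2, beside 10.1% of all genes by edgeR, and 2 had an unadjusted p under 0.05 by edgeR. These were P2ry2, with a batch 2 minus batch 1 difference of -0.77 on the log2 scale (edgeR adjusted p = 0.103), and P2rx4, with a difference of 0.54 (edgeR adjusted p = 0.117). P2rx4 passed when the first adenosine library of batch 1 was left out (log2 difference 0.68, edgeR adjusted p = 0.0388). For Adora2b the difference was 1.22, with a 95% interval of -0.19 to 2.63, and for P2rx5 it was 0.98, with an interval of -0.35 to 2.30. The intervals are wide enough to hold differences of over 1 log2 unit in these genes. Dose and batch changed together and cannot be told apart.

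In every treated group Adora2b made up a smaller share of the receptor mRNA pool, and P2rx4 a larger one, than in the DMSO libraries of its batch. Over the 6 genes in both tables, as shares of the summed CPM per kilobase, Adora2b made up 21.2% ± 3.78 (SD, n = 3) in batch 1 DMSO and 0.850% ± 0.693 with adenosine. In batch 2 its share was 35.7% ± 4.70 with DMSO, 4.38% ± 2.76 with adenosine and 8.84% ± 5.42 with AMP. The share of P2rx4 was 26.4% ± 3.30 and 49.7% ± 6.87 in batch 1, and 11.9% ± 1.37, 41.5% ± 2.70 and 34.6% ± 4.75 in the DMSO, adenosine and AMP groups of batch 2. P2rx4 thus ranked first per kilobase in all 3 treated groups. P2ry2 made up 26.7% ± 4.60 and 12.1% ± 2.70 in batch 1, and 32.3% ± 3.36, 10.9% ± 0.833 and 25.2% ± 5.66 in batch 2. The AMP libraries, at 18.7% to 29.2%, overlapped the DMSO libraries, at 28.7% to 35.4%. P2ry1 made up 12.1% ± 1.599 and 22.6% ± 6.23 in batch 1, and 13.8% ± 1.14, 26.7% ± 1.11 and 18.2% ± 3.39 in the DMSO, adenosine and AMP groups of batch 2. Its AMP libraries, at 14.8% to 21.6%, also overlapped DMSO, at 12.7% to 14.96%. The share of P2rx5 was 6.61% ± 2.96 and 7.64% ± 3.96 in batch 1, and 5.15% ± 1.31, 15.1% ± 5.03 and 12.1% ± 3.98 in batch 2. The sum itself, by library totals, was 15.5 ± 0.494 CPM per kilobase with DMSO and 15.6 ± 0.849 with adenosine in batch 1. In batch 2 it was 16.2 ± 1.35 with DMSO, 13.8 ± 0.957 with adenosine and 15.6 ± 0.597 with AMP. With TMM-scaled library sizes, tried after the data were seen, the batch 1 sums were 16.9 and 14.4 and those of batch 2 were 18.5, 12.7 and 14.9, so the batch 1 adenosine and the AMP sums were level or lower depending on the scaling. With adenosine in batch 2 the sum was lower under both. The shares do not depend on it.

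**Figure D3:**
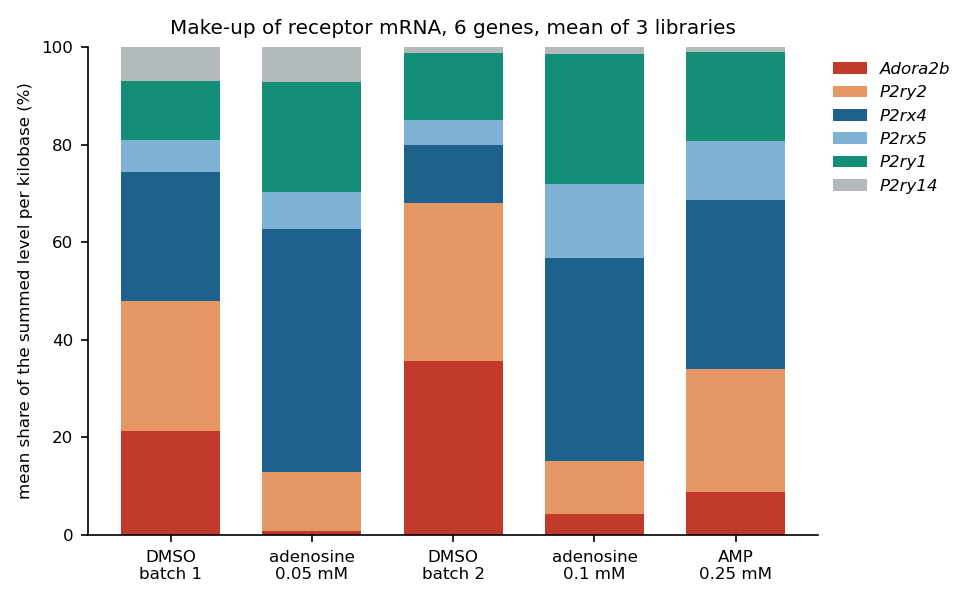
Mean share of each of 6 receptor genes in their summed CPM per kilobase, stacked to 100%, in the 5 groups of 3 libraries. The Adora2b segment went from 21.2% to 0.850% with adenosine in batch 1 and from 35.7% to 4.38% with adenosine and 8.84% with AMP in batch 2.

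The patterns of single receptors were set beside those of 12179 other genes as a description, by Pearson r of log2 CPM centred on the DMSO mean of each batch, over 15 libraries that share treatment groups and depth. Nearest to Adora2b were Lbhd1 (r = 0.979), Serpinf1, which encodes a secreted serpin (r = 0.974), and Tnc, which encodes the matrix protein tenascin C (r = 0.974). P2rx4 was nearest to Smox, the gene of spermine oxidase (r = 0.986), Faap20 (r = 0.985) and Trappc6a (r = 0.983). P2ry2 ran with Pdlim4 (r = 0.974), the kinase gene Dapk2 (r = 0.969) and Pdlim5 (r = 0.961), both Pdlim genes encoding cytoskeletal adaptor proteins. For P2ry1 the nearest genes were Nxt2 (r = 0.927), Capn7 (r = 0.919) and Tmem30a (r = 0.919), and for P2rx5 they were Gba2 (r = 0.921), Acox3 (r = 0.901) and Tulp3 (r = 0.898). P2ry14 had the least close neighbours, Il13ra1 (r = 0.873), Hspa12b (r = 0.749) and Wls (r = 0.748). Between the receptors, r was 0.83 for Adora2b with P2ry2 and -0.71 for Adora2b with P2rx4.

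Most of the 10 other purinergic receptor genes were at or near 0 counts in batch 1. P2rx7, the ATP-gated channel best known from macrophages, was the 1 gene of this list with enough counts to test. Its batch 2 libraries held 1.69, 2.53 and 1.75 CPM with DMSO, 6.61, 6.65 and 4.74 CPM with adenosine and 6.03, 6.16 and 5.89 CPM with AMP, with no overlap of treated and control libraries. P2rx7 was 2.45-fold higher with adenosine (log2 fold change 1.29, SE 0.26, edgeR adjusted p = 0.000405) and 2.53-fold higher with AMP (log2 fold change 1.34, SE 0.26, edgeR adjusted p = 0.000366). In batch 1 it held 5.91, 3.39 and 6.78 CPM with DMSO and 9.81, 14.6 and 7.81 CPM with adenosine, with no overlap, and missed the threshold (edgeR adjusted p = 0.0746). It passed with library totals in place of TMM factors (log2 fold change 0.997, edgeR adjusted p = 0.0264). P2rx6, chosen here after its values were seen, had 0 counts in all 3 DMSO libraries and 26, 13 and 4 with adenosine, which is at least 5.33-fold higher than a floor of 3 counts per library. Without the first adenosine library the bound was 2.96-fold. It did not pass the filter on low counts, and the authors' deposited table gives it an adjusted p of 0.00114.

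Genes that act beside the receptors, in 8 lists of 76 genes in all including the other receptors, were called lower more often than higher, by a margin that depended on the scaling. In batch 1, 19 of the 50 genes tested were lower with adenosine and 4 higher (46.0% called, beside 39.2% of all genes). In batch 2, 22 of 44 were lower and 9 higher with adenosine (70.5%, beside 69.4%), and 20 were lower and 10 higher with AMP (68.2%, beside 65.6%). With library totals in place of TMM factors, the splits were 14 lower and 10 higher, 18 lower and 14 higher, and 17 lower and 15 higher. The split of all called genes moved with the scaling too. By TMM, 17.4%, 29.0% and 33.3% of the called listed genes were higher, beside 50.1%, 50.3% and 51.4% of all called genes. By library totals the shares were 41.7%, 43.8% and 46.9%, beside 67.2%, 68.7% and 69.9%. The shares called in either direction were close to the background, and the lists were chosen with earlier results of these data known.

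The counts per list below stand beside shares of all genes tested of 19.5% lower and 19.6% higher with adenosine in batch 1. In batch 2 these shares were 34.5% and 34.9% with adenosine, and 31.8% and 33.7% with AMP. Each list holds few tested genes, so its counts are no property of the list. Among G protein alpha subunits, 3 of 11 tested were lower and 1 higher with adenosine in batch 1, and 4 of 10 were lower and 1 higher with each agent in batch 2. Gnao1, which encodes an inhibitory subunit, fell by 2.60 on the log2 scale in batch 1, by 2.96 with adenosine in batch 2 and by 1.47 with AMP. Gnaq, the Gq subunit used by P2ry1 and P2ry2, fell by 1.29, 1.20 and 0.73 in the same order. Gnai2 was lower in batch 1 (log2 fold change -0.52), and Gnai1 fell by 2.49 with adenosine and 2.00 with AMP in batch 2. Of the adenylyl cyclases, 1 of 6 tested was lower in batch 1 and 2 of 5 with each agent in batch 2, and none was higher. These were Adcy7, with log2 fold changes of -1.02, -0.39 and -0.23, and in batch 2 also Adcy3, with -0.82 and -0.84. With library totals the batch 2 values of Adcy7 were -0.08 and 0.032, neither past the edgeR threshold, and the batch 1 call of Gnai2 was lost (edgeR adjusted p = 0.0566).

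Of the protein kinase A subunits, 3 of 6 tested were lower in batch 1, and 4 of 5 were lower and 1 higher with each agent in batch 2, and no gene of the cyclic AMP sensor EPAC on that list was tested. The regulatory subunit gene Prkar2a fell by 1.18, 1.83 and 1.26 on the log2 scale and Prkar2b by 0.92, 1.97 and 1.98, and the catalytic subunit gene Prkaca by 0.40, 0.66 and 0.75. The batch 1 calls of Prkar2b and Prkaca were lost with library totals (edgeR adjusted p = 0.0914 and 0.284). The phosphodiesterases that degrade cyclic AMP gave 6 lower and 2 higher of 11 in batch 1, 6 lower and 3 higher of 10 with adenosine in batch 2, and 4 lower and 3 higher with AMP. Pde1c fell by 2.23, 2.26 and 1.61 and Pde3b by 1.61, 2.28 and 1.83. Pde3a fell by 1.17, 2.28 and 1.28, with a batch 1 call (edgeR adjusted p = 0.0264) that was lost with library totals (0.0516). Pde8b was lower in batch 1 (-1.74), a call lost in 5 of the 6 refits that left out a library, and Pde4a with adenosine in batch 2 (-1.98) and with AMP (-1.62). Pde4b, chosen after its values were seen, was higher in all 3 comparisons (0.54, 0.83 and 1.04).

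The phospholipase C beta and IP3 receptor genes gave 3 lower and none higher of 6 in batch 1, and 2 lower and 1 higher of 5 with each agent in batch 2. Plcb4 fell by 1.82, 1.32 and 0.69 and Plcb3 by 0.78, 0.72 and 0.64, and Plcb1 was lower in batch 1 (-2.65). The IP3 receptor gene Itpr1 was higher with adenosine in batch 2 (0.46) and with AMP (0.32). Receptor kinases and arrestins, which switch off active receptors, gave 1 lower of 6 in batch 1, 2 higher and 2 lower with adenosine in batch 2, and 3 higher and 2 lower with AMP. Grk4 was higher (1.96 and 1.501) and Arrb1, which encodes beta-arrestin 1, lower (-1.95 and -1.84) with adenosine and AMP in batch 2. Grk6 was lower with adenosine in both batches (-0.61 and -0.83) and with AMP (-0.66), and Grk5 was higher with AMP (0.86).

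Among nucleotide release channels, Panx1, the pannexin that lets ATP out of cells, fell by 1.496, 1.96 and 1.74, and the connexin gene Gja1 by 1.91, 2.45 and 1.80. Slc17a9, the vesicular nucleotide transporter gene, was called higher in batch 1 (edgeR adjusted p = 0.0169), at 0.173 ± 0.124 CPM with DMSO (SD, n = 3), about the level of 3 counts, and 1.18 ± 0.381 CPM with adenosine. It entered the test only through the adenosine libraries, and the call was lost in 4 of the 6 refits that left out a library. These were all 3 genes tested in batch 1 and both tested in batch 2. Between AMP and adenosine, 6 of the 44 genes differed, all higher with AMP (13.6%, beside 6.51% of all genes). They were Gnao1 (1.496), Grk5 (1.38), Gja1 (0.65), Pde10a (0.65), Plcb4 (0.62) and Prkar2a (0.57), each past the edgeR threshold, and P2ry2 was higher with AMP as well.

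**Figure D4:**
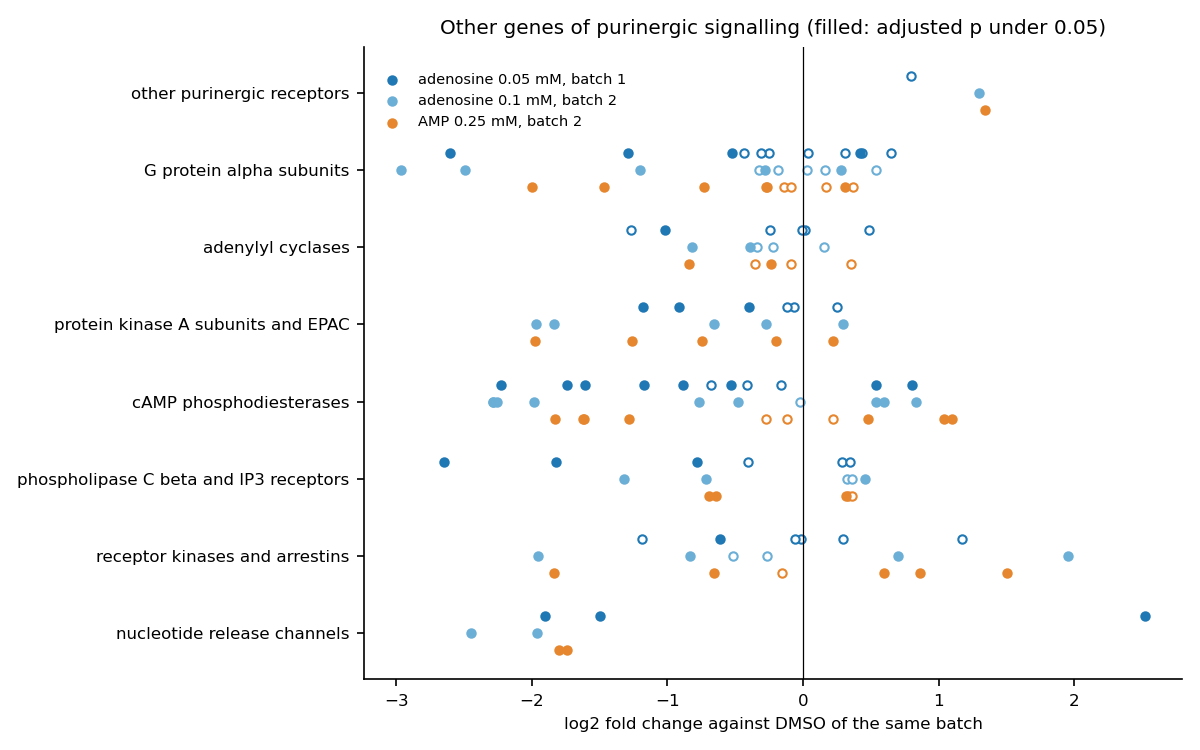
Log2 fold change of each tested gene of 8 lists around the receptors, against the DMSO libraries of its batch, coloured by treatment; filled points passed the adjusted threshold. With TMM scaling most filled points lie left of 0, a split that narrowed with library totals (14 lower and 10 higher in batch 1), and the release channels Panx1 and Gja1 are at -1.496 to -2.45.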

How the data were processed

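RNA from 15 libraries of cultured mouse satellite cells was made into cDNA by Smart-seq2 and fragmented with Tn5, per the labels' protocols, which does not keep the strand. The submitters' processing notes name Trim Galore, STAR, featureCounts (Subread) and DESeq2 and the mm10 build, and the batch 1 count table came from featureCounts 1.6.4 on paired reads over exons, per the file headers. Raw gene counts and FPKM values were deposited by the authors for each batch, together with a batch 1 table of log2 fold changes (DMSO over adenosine) and adjusted p-values. The deposited batch 2 table held no named gene under 101 counts in total, and its 43 lines naming no gene (0.0589% of counts) were left out. The member genes and lists were chosen with earlier results of these data known. Counts were fitted with edgeR 4.0.16 (R 4.3.3; TMM factors, filterByExpr and the two-sided quasi-likelihood test), with p-values adjusted by Benjamini-Hochberg over all genes tested and a threshold of 0.05: batch 1 alone, the 9 libraries of batch 2 together, and 12 libraries with a batch by treatment term. CPM used library totals, and per-kilobase values used the exon lengths of the batch 1 table. An exact permutation test of 3 against 3 libraries cannot go below 0.1. The fits were also run on simulated counts, in which far fewer genes changed than were called in these data. That run therefore does not speak to the scaling here. Named genes were the 9 receptors, the 3 largest called changes of each list and comparison, the 3 genes most alike to each receptor and genes overlapping one. Alternatives were DESeq2 1.42.0, limma 3.58.1 on log2(FPKM + 1), other size factors, no filter, a replicate block, only the groups compared, and leaving out each library. Replicate pairs all differed beyond sampling noise (chi-square per degree of freedom 3.54 to 34.4 over 15 pairs). The batch 2 DMSO and adenosine libraries of the same number deviated together in all 3 pairs (r = 0.28, 0.24 and 0.12). For DMSO with AMP r was 0.04, 0.25 and 0.03, and for adenosine with AMP it was 0.22, 0.47 and -0.04. The numbers may therefore pair libraries of batch 2, which the labels do not state. Adding the number as a block changed no receptor call in batch 2.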

Additional observations from a re-analysis of the deposited data

Results flagged for a closer look

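The effect of adenosine differed between batch 2 and batch 1 by the interaction test for 4 genes named from the lists and for none of the receptor genes. On the log2 scale, batch 2 minus batch 1, the difference was -2.05 for Gnai1 (edgeR adjusted p = 0.00756), -0.81 for Adcy3 (edgeR adjusted p = 0.0298), 0.63 for Adcy7 (edgeR adjusted p = 0.0109) and -0.65 for Prkar2a (edgeR adjusted p = 0.0449). Dose and batch changed together between these comparisons and cannot be told apart. With library totals in place of TMM factors, Adcy3 (edgeR adjusted p = 0.0644) and Prkar2a (edgeR adjusted p = 0.0940) no longer passed, and Prkar2a was also lost with a replicate block (edgeR adjusted p = 0.0536).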

How the results depend on the processing

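Calls for Adora2b, P2ry2 and P2rx4 against DMSO kept their direction under every alternative run and their side of the threshold in all but the 2 cases given with P2rx4 (limma on FPKM, batch 1) and P2ry2 (library totals, AMP). By limma on log2(FPKM + 1), 2 receptor genes passed in batch 1 in place of 4, and 14 in place of 23 listed genes; between AMP and adenosine 2 listed genes passed in place of 6. Leaving out 1 library gave, for adenosine in batch 1, adenosine in batch 2, AMP, AMP against adenosine and the interaction in turn, 3 to 4, 4 to 5, 3 to 5, 1 to 2 and 0 to 1 receptor genes, 18 to 25, 30 to 31, 26 to 30, 3 to 7 and 2 to 7 listed genes, and 4326 to 4912, 8411 to 8633, 7786 to 8310, 408 to 991 and 624 to 1877 genes in all. The listed genes that differed between AMP and adenosine went from 6 to 3 without the third adenosine or the second AMP library, and all genes from 851 to 408, 555 and 519 without the third adenosine, the first AMP or the second AMP library. For the interaction, all genes went from 1324 to 860 without the second batch 1 DMSO library, to 820, 624 and 759 without each batch 2 DMSO library and to 816 and 869 without the first or the third batch 2 adenosine library. Adcy7 with AMP turned from -0.23 to 0.032 with library totals, which moved the median over all genes up by 0.20, 0.31 and 0.27 in the 3 comparisons with DMSO. With TMM-scaled sizes the summed receptor level was 16.9 and 14.4 CPM per kilobase (DMSO and adenosine, batch 1) and 18.5, 12.7 and 14.9 (DMSO, adenosine and AMP, batch 2). Same-numbered replicates were not taken as pairs in any main fit. The correlations of their deviations ran from -0.10 to 0.16 in batch 1 and from -0.04 to 0.47 over batch 2 (median 0.22, against -0.11 for different numbers). A replicate block left 3, 5, 4, 1 and 0 receptor genes, losing P2ry1 in batch 1 (edgeR adjusted p = 0.0695) and, of the listed genes there, Pde8b, Pde10a and Prkaca (edgeR adjusted p = 0.0610, 0.0517 and 0.0664). It changed no receptor call in batch 2 and left 5004, 9239, 8742, 1159 and 1169 genes in all. P2ry1 in batch 1 was also lost without a filter on low counts (edgeR adjusted p = 0.0779) and by limma (0.154). Depth limits Adora1, Adora2a and P2ry6, and Adora2b under adenosine in batch 1.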
